A study of Drosophila melanogaster with 24 samples.

Results

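The Enhancer of split complex of Drosophila melanogaster, E(spl)-C, was followed through wing development as the peaks of open chromatin and of E93 binding that overlapped an 80 kb window of chromosome arm 3R. The merged regions of the window ran from chr3R:21814270 to 21889875 in build dm3 (Release 5), the first of them starting 4.27 kb from the window start. A peak belonged to the locus if it overlapped that window by at least 1 bp, whatever its height, and the peaks of all 7 lists were merged wherever they overlapped. This gave 62 of the 54832 merged regions of the series. The position of the window rests on this rule, since no gene annotation of that release was used here, and so no region is assigned to a gene.

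Notch signalling acts on this locus directly. When a ligand activates the receptor, the intracellular part of Notch joins the DNA-binding protein Su(H), and the genes of the complex are among its best known targets. In a gene table of Release 6, which was used for names and order only, 13 of 13 listed genes were found on 3R in the order E(spl)mdelta-HLH, E(spl)mgamma-HLH, E(spl)mbeta-HLH, E(spl)malpha-BFM, Kaz-m1 (also E(spl)m1), E(spl)m2-BFM, E(spl)m3-HLH, E(spl)m4-BFM, E(spl)m5-HLH, E(spl)m6-BFM, E(spl)m7-HLH, E(spl)m8-HLH and gro. The 7 HLH genes code for basic helix-loop-helix repressors, and gro codes for Groucho, the corepressor that they recruit. The 4 BFM genes belong to the Bearded family, whose members inhibit Neuralized, a ubiquitin ligase that promotes signalling by the Notch ligand Delta. No other protein-coding gene lay between the first and the last of these genes (0 in the table). In the wing the complex is known for lateral inhibition of sensory organ precursors and for its expression at the dorsoventral boundary and along the borders of the veins.

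Open chromatin was mapped by FAIRE-seq, in which crosslinked chromatin is sheared and the DNA that is free of nucleosomes is recovered by phenol extraction and sequenced. Wild-type wings (strain w1118/y,w, hs-FLP; + ; +) were taken from wandering larvae of the last instar (L3) and from pupae 24 h and 44 h after puparium formation (APF), with 3 replicates a stage. E93 mutant wings carried the allele E93-4 over the deficiency Df(3R)93FX2 and were taken at the same stages, with 2 replicates each. Each of these samples held at least 40 wings. E93, the product of Eip93F, is an ecdysone-induced transcription factor of the pupal stages, and its binding was measured at 24 h by ChIP-seq with an anti-GFP antibody in 2 replicates of at least 700 wings that carried the protein trap E93-GFSTF (yw/+; + ; Mi{MIC}Eip93F/+). The trap chromosome was heterozygous, and no ChIP-seq from untagged wings was analysed here. The deficiency lies on the same chromosome arm as the complex, and its extent is not given in the sources used here.

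The replicates of a condition had been pooled before peaks were called, so each condition is 1 list with no measure of replicate error, and no difference between conditions could be tested. The lists held 39525, 29731 and 28684 peaks in the wild type at L3, 24 h and 44 h, 28216, 26239 and 22786 peaks in the mutant at the same stages, and 8477 peaks in the ChIP-seq. Pileup, the height of read coverage at the summit of a peak, was scaled differently in the lists. Each peak is therefore described by its rank, where rank 1 is the highest pileup of its list, and by its percentile, where 100 is the top of the list. Both depend on the length of the list. The mutant L3 list, by its label, carries peak names that point to puparium formation instead, which leaves its exact stage in doubt. In the longest list, that of the wild type at L3, the peaks are named as if they were only a top selection, and the name of this list, unlike those of the other 5 FAIRE-seq lists, does not state that PCR duplicates were removed. Every comparison of wild-type L3 with another list rests on it, and the part of this in the results was not tested. In whole wings, fewer cells with an open site and a less open site in each cell cannot be told apart.

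At L3 the complex was covered by open chromatin over a larger share of its length than any other window of the same size laid end to end. Wild-type L3 peaks filled 40.2% of the window, against 9.71% of the median 80 kb window, and of the 1482 windows along the chromosome arms none of the others was filled as much. The mutant L3 peaks filled 32.9% of it, against a median of 6.98%, and again no other window reached that share. The covered share then fell with stage in both genotypes. In the wild type it was 27.9% at 24 h and 20.4% at 44 h, where 13 and 58 windows, the complex included, were filled at least as much. In the mutant it was 27.8% at 24 h and 19.8% at 44 h, where 4 and 21 windows were. The median window fell too, to 8.07% and 7.58% in the wild type and to 6.37% and 5.70% in the mutant. With each FAIRE-seq list held to its 22786 strongest peaks, the complex was filled to 36.2%, 25.6% and 18.8% in the wild type. In the mutant these shares were 31.8%, 26.9% and 19.8%. The E93 ChIP-seq peaks filled 10.2% of the window, against a median of 1.50%, and 36 windows were filled at least as much.

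**Figure D1:**
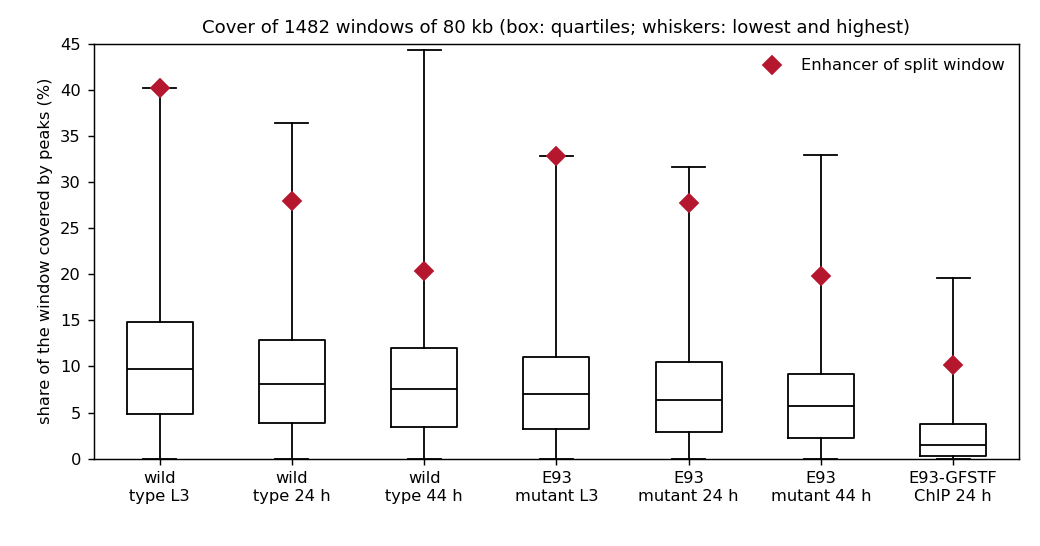
Share of each 80 kb window that was covered by peaks, in percent, for the 7 lists. Boxes show the median and quartiles of the 1482 windows, whiskers reach the lowest and highest window, and the red diamond is the E(spl)-C window, which is the top value at L3 in both genotypes (40.2% in the wild type and 32.9% in the mutant) and lies above the box in all 7 lists.

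The position of the windows was shifted to see whether this order depended on their edges. Among 11837 windows of the same length set 10 kb apart and free of overlap with the complex, 2 were covered at least as much as the complex in the wild-type L3 list, the higher of them to 41.7%, and 9 in the mutant L3 list. At 24 h there were 91 such windows in the wild type and 22 in the mutant, and at 44 h there were 460 and 172. The complex was therefore at or near the top at L3 and had more equals at each later stage.

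The complex also held more peaks than the median window in every list. The window held 60, 43 and 34 wild-type peaks at L3, 24 h and 44 h, 47, 45 and 40 mutant peaks, and 18 ChIP-seq peaks. The median window held 27, 20 and 19 wild-type peaks, 19, 17 and 15 mutant peaks and 4 ChIP-seq peaks. At L3 in the wild type, 1.55% of the windows (exact 95% binomial interval 0.986% to 2.32%, which like the other intervals covers counting error only) held at least as many peaks. That share was 5.13% at 24 h and 13.5% at 44 h in the wild type, 2.09%, 1.89% and 2.23% in the mutant, and 5.20% in the ChIP-seq.

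The peaks of the complex were long in most of the FAIRE-seq lists. Their median length in the wild type was 362.5 bp at L3, 429 bp at 24 h and 430 bp at 44 h, against 236 bp, 272 bp and 267 bp over the whole lists. In the mutant it was 336 bp, 421 bp and 267.5 bp, against 242 bp, 249 bp and 261 bp, so that at 44 h the mutant peaks of the locus were close in length to those of the genome at large. The ChIP-seq peaks had a median of 277.5 bp, against 281 bp over their list.

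By height the members spanned nearly the whole of each list. Wild-type pileup in the window ran from 24.0 to 189 at L3, from 24.3 to 129 at 24 h and from 24.4 to 147 at 44 h. In the mutant it ran from 16.0 to 158 at L3, from 14.0 to 139 at 24 h and from 11.0 to 119 at 44 h. The median percentile of the member peaks was 65.4, 64.0 and 61.6 in the wild type, 58.1, 63.0 and 63.1 in the mutant and 47.7 in the ChIP-seq. In the wild type, the strongest 25% of each list held 36.7%, 46.5% and 41.2% of the member peaks by stage. In the mutant these shares were 34.0%, 48.9% and 42.5%, and in the ChIP-seq the share was 33.3%. Both strong and weak sites made up the locus, which the map of peaks along the window shows.

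**Figure D2:**
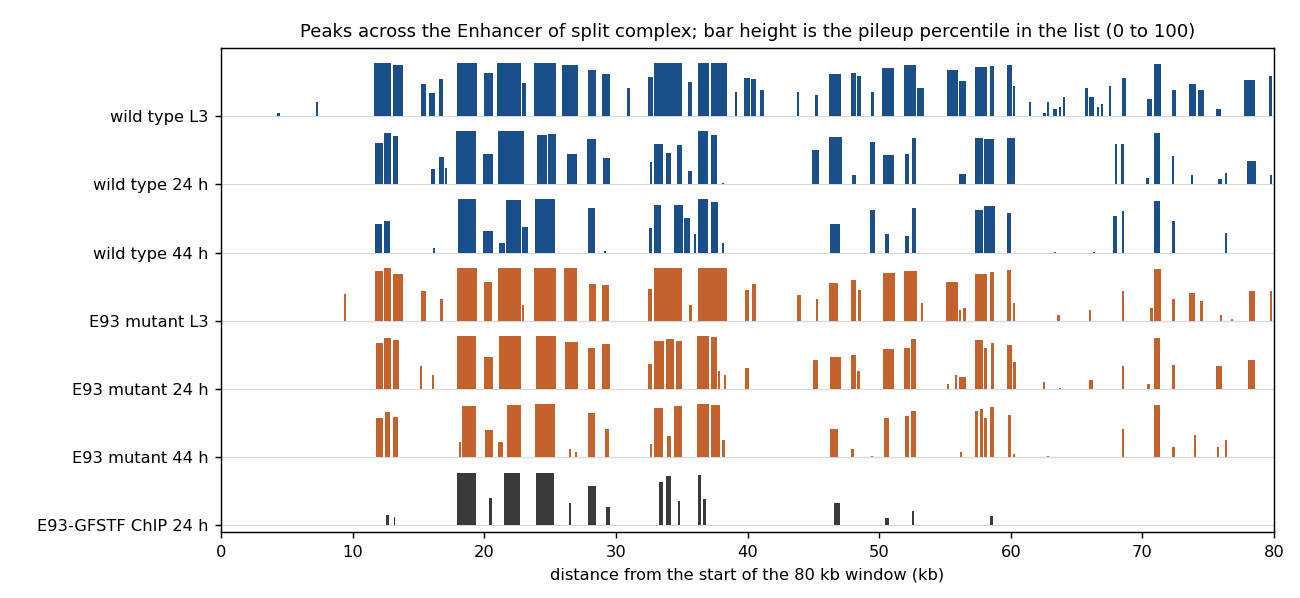
Peaks of the 7 lists along the 80 kb E(spl)-C window, with 1 track per list. The x axis is the distance from the start of the window in kb, each bar spans a peak, and its height is the pileup percentile of the peak in its list. Most of the tall bars lie between 11.7 and 60 kb, the 18 ChIP-seq peaks all lie between 12.5 and 58.6 kb, and the last 20 kb hold many short bars in the wild-type L3 track.

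Most of the strong sites lay in the first 60 kb of the window, and the last 20 kb held the most regions. Regions are named below by the distance of their start from the window start. The 4 successive stretches of 20 kb held 10, 14, 14 and 24 regions, and the length of these regions summed to 5.68, 13.7, 9.03 and 8.19 kb. Regions with a peak in all 6 FAIRE-seq lists numbered 2, 8, 4 and 4, and regions with a ChIP-seq peak numbered 3, 8, 4 and 0. The stretch from 20 to 40 kb therefore held the most regions of both kinds, while the last stretch, with the most regions of all, had no ChIP-seq peak. Apart from wild-type and mutant L3 peaks, all peaks of the window started at 11.7 kb or beyond.

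**Figure D3:**
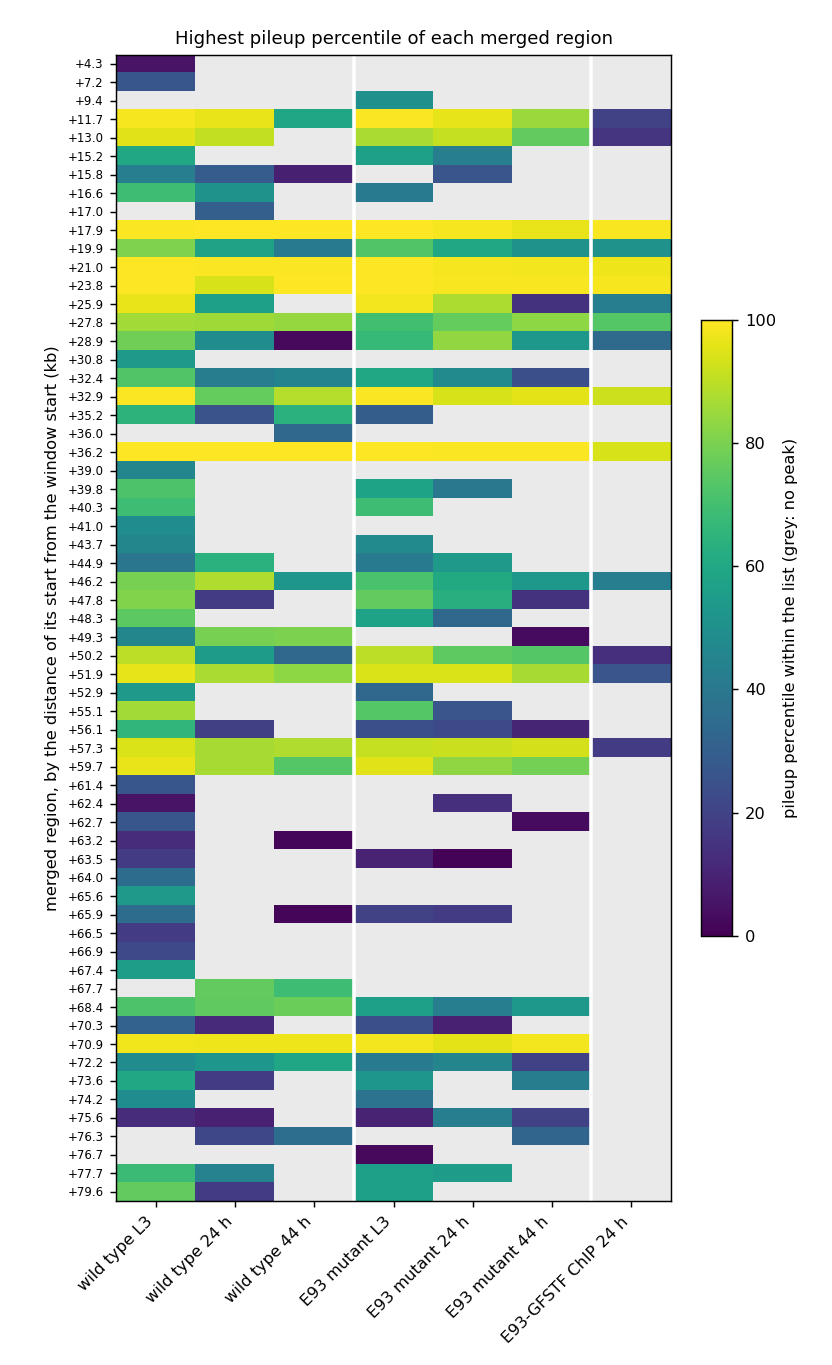
Highest pileup percentile of each of the 62 merged regions (rows, named by the distance of their start from the window start in kb) in the 7 lists (columns), with grey where a list had no peak. The 13 regions filled in all 7 columns are 9 regions from +11.7 to +36.2 kb and 4 from +46.2 to +57.3 kb, and the rows beyond 60 kb have no ChIP-seq value.

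A few strong sites stayed near the top of every FAIRE-seq list. The region at +36.2 kb (chr3R:21846200-21848441, 2242 bp) had ranks 41, 37 and 80 in the wild type at L3, 24 h and 44 h and ranks 34, 159 and 99 in the mutant. Its pileup was 188, 129 and 146 in the wild type, 149, 139 and 119 in the mutant and 75.0 in the ChIP-seq, where its rank was 510. No other region of the window kept so high a place throughout, its worst rank being 159, that of the mutant at 24 h.

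The region at +21.0 kb (chr3R:21830967-21833305, 2339 bp), the longest of the locus, had ranks 36, 173 and 171 in the wild type and 11, 327 and 381 in the mutant. The mutant L3 peak was the highest of the window in any FAIRE-seq list by rank. Its pileup was 189, 124 and 143 in the wild type and 158, 131 and 104 in the mutant, and its ChIP-seq peak had a pileup of 88.8 and rank 201. The region at +17.9 kb (chr3R:21827869-21829425, 1557 bp) had ranks 153, 47 and 80 in the wild type, 53, 350 and 741 in the mutant and 77 in the ChIP-seq, where its pileup of 100 was the highest of the complex. In both regions the wild type stayed within the top 200 places and the mutant dropped with each stage. How much of that drop replicates of the mutant would show could not be measured.

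Regions of rank 500 or better numbered 6, 3 and 4 in the wild type at L3, 24 h and 44 h and 7, 4 and 4 in the mutant. Over the series, 513 regions had such a rank in the wild type at L3. Rank 500 is a larger part of a shorter list, so these counts are not compared between lists. Region +23.8 kb (chr3R:21833798-21835463, 1666 bp) had such a rank at L3, but it did not follow the same course. Its ranks were 41 at L3, 1802 at 24 h and 54 at 44 h in the wild type, and 32, 254 and 222 in the mutant. The wild-type pileup was 188, 111 and 147, the mutant pileup 150, 134 and 110, and the ChIP-seq pileup 96.2, at rank 115. The wild type at 24 h was thus the low point, and it was also the list in which this region was called as a pair of peaks, with summits at 24.42 kb and 25.00 kb from the window start. The ChIP-seq summit lay at 24.32 kb.

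A further change of shape was seen at +32.9 kb (chr3R:21842869-21845075, 2207 bp), a region outside the naming rule that was picked after its values were seen. At L3 the wild type had 1 peak of 2159 bp there, with its summit at 34.09 kb and rank 153, and the mutant had 1 peak at rank 189. At 24 h the wild type had 3 peaks, with summits at 33.25, 33.90 and 34.90 kb and ranks 6922, 12358 and 7862. At 44 h it had 2 peaks, at 33.26 and 34.89 kb, both at rank 3150. The broad larval peak was therefore followed by separate, lower peaks at its flanks, with none called in its centre at 44 h.

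The mutant had 3 peaks in that region at both pupal stages, higher in their lists than the wild-type ones, with the middle peak low at 44 h. Their ranks were 2492, 1593 and 2726 at 24 h and 1499, 13464 and 929 at 44 h. E93 ChIP-seq peaks were called at the same 3 places, with summits at 33.37, 33.96 and 34.85 kb and ranks 1478, 650 and 4497. The middle ChIP-seq peak, the strongest of them, lay where the wild-type FAIRE-seq list was weakest at 24 h and empty at 44 h. Over the series, 513 regions had a wild-type L3 rank of 500 or better, and 50 of them (9.75%) had a wild-type 24 h rank worse than 5000 or no 24 h peak. Of the 6 such regions in the complex, +32.9 kb was the only one.

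**Figure D4:**
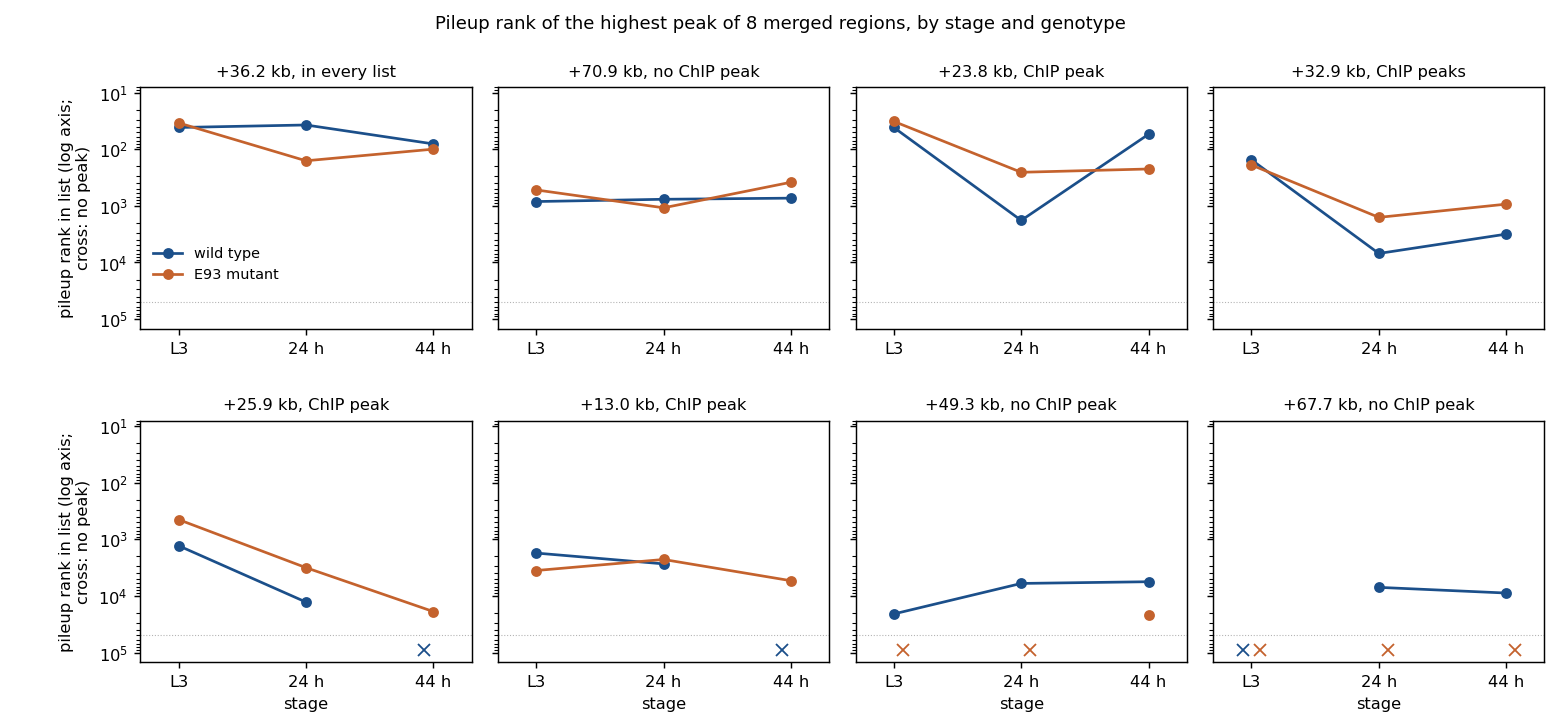
Pileup rank (log axis, rank 1 at the top) at L3, 24 h and 44 h of 8 regions of the complex, wild type in blue and E93 mutant in orange, with a cross where no peak was called. Regions +36.2 and +70.9 kb stay high in all 6 lists, +32.9 and +25.9 kb drop further in the wild type than in the mutant at 24 h, and +49.3 and +67.7 kb have wild-type pupal peaks that the mutant lacks at 24 h. The regions +32.9, +25.9, +13 and +70.9 kb were chosen after their values were seen.

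Most of the change between stages in the wild type was loss. Of the 62 regions, 22 (35.5%, interval 23.7% to 48.7%) had a wild-type peak at L3 and at no pupal stage, against 28.0% of all merged regions. Only 1 region had a wild-type peak at 24 h alone, against 7.13% of all regions, and only 1 at 44 h alone, against 9.85%. Regions with a peak at every wild-type stage numbered 21 (33.9%, 22.3% to 47.0%), against 26.9% in the series, and 11 (17.7%, 9.20% to 29.5%) had one at L3 and 24 h but not at 44 h, against 8.35%. The remaining wild-type patterns were rare, with 2 regions at L3 and 44 h (series 4.52%), 2 at 24 h and 44 h (series 7.44%) and 2 in the mutant alone (series 7.56%). The interval of most of these shares holds the value of the series. The exceptions were the regions at 44 h alone, whose interval reached 8.66%, below the series, and those at L3 and 24 h, whose interval began above it. Both margins were small, and the intervals take neighbouring regions of 1 locus as independent. Neither exception is therefore read as particular to the complex.

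The 11 regions open at L3 and 24 h but not at 44 h had a median percentile of 68.0 at L3 and 18.9 at 24 h, so that most were already weak before they dropped out of the list. They included 2 regions with a ChIP-seq peak. Region +13 kb (chr3R:21823033-21823797) had wild-type ranks 1743 and 2707 at L3 and 24 h and no peak at 44 h, while the mutant had ranks 3547, 2262 and 5375. Region +25.9 kb (chr3R:21835944-21837109) had wild-type ranks 1293 and 12825 and no peak at 44 h, and mutant ranks 446, 3157 and 18862. In the mutant at 44 h both regions still had a peak, though that at +25.9 kb was near the bottom of the list.

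The wild-type 24 h peaks of the complex were almost a subset of the larval ones. Of the 43 wild-type peaks at 24 h, 40 (93.0%, 80.9% to 98.5%) overlapped an L3 peak, against 70.8% of the whole 24 h list. From 24 h to 44 h, 30 of the 43 peaks (69.8%) were found again, against 69.1%. Of the 34 peaks at 44 h, 31 (91.2%, 76.3% to 98.1%) overlapped a 24 h peak, against 71.2%. In the other direction, 36 of the 60 L3 peaks (60.0%) were found at 24 h and 26 (43.3%) at 44 h, against 52.9% and 47.1% over the list. The L3 list is also the longest, and its part in these shares was not tested.

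Only 4 of the 62 regions had a wild-type pupal peak and none at L3, against 13387 of the 54832 merged regions of the series. In 3 of the 4 (interval 19.4% to 99.4%) the mutant had no peak at any stage, against 67.4% of such regions in the series. The strongest, +67.7 kb (chr3R:21877736-21878102, 367 bp), had a pileup of 82.2 at 24 h (rank 7040) and 79.5 at 44 h (rank 8876) and no peak in the mutant at any stage or in the ChIP-seq. Region +76.3 kb had ranks 23072 and 18169 at the wild-type pupal stages and 14865 in the mutant at 44 h. Region +36.0 kb had a peak in the wild-type 44 h list only, at rank 18799, and +17.0 kb one in the wild-type 24 h list only, at rank 20568. Of these 4, +67.7 kb was in the strongest 25% of the wild-type 24 h list and the others were in the lower part of their lists.

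Most of the sites lost by 24 h were not among the strong ones of the L3 list. Of the 56 regions with a wild-type L3 peak, 24 (42.9%, 29.7% to 56.8%) had none at 24 h, against 47.9% in the series, and 33 (58.9%) had none at 44 h, against 53.6%. The lost regions had a median L3 percentile of 45.9, and the highest was at 86.0. These values were not computed for the lost regions of the series, so nothing particular to the complex is read from them. None of the 24 had a ChIP-seq peak, and only 0.539% of such regions in the series had one. The highest of them was +55.1 kb (chr3R:21865111-21865991, 881 bp), with a pileup of 86.0 and rank 5505 in the wild type at L3 and rank 7393 in the mutant at L3. The mutant still had peaks there at 24 h, the higher at rank 18855. Regions +48.3 kb and +39.8 kb followed with wild-type L3 ranks 9879 and 10854, a mutant L3 rank of 11605 in both, and mutant 24 h ranks 16944 and 15330. All 3 were therefore called at 24 h in the mutant but not in the wild type, at low places in the list, and none was called at 44 h in either genotype.

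Over all 24 regions lost by 24 h, 7 had a mutant 24 h peak (29.2%, 12.6% to 51.1%), against 20.3% of such regions in the series. Of the 33 lost by 44 h, 7 had a mutant 44 h peak (21.2%, 8.98% to 38.9%), against 12.8%. Both intervals include the share of the series. In the mutant itself, 36 of 47 L3 peaks (76.6%) were found at 24 h, against 67.4% of the list, and 26 (55.3%) at 44 h, against 57.0%, while 33 of 45 mutant 24 h peaks (73.3%) were found at 44 h, against 66.7%. By region, 10 of 42 L3 regions (23.8%) had no 24 h peak, against 32.0%, and 18 of 42 (42.9%) had no 44 h peak, against 42.7%. Of the 22 regions with only a larval wild-type peak, 11 were in no other list, against 9037 of 15333 such regions in the series. These 11 were 17.7% of the locus (9.20% to 29.5%), against 16.5% of all merged regions. Their L3 percentiles ran from 5.18 to 55.7 and their lengths from 136 to 313 bp. The last 20 kb, with 24 of the 62 regions, held 6 of these 11.

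Where a site was called at both stages, it was mostly lower in the pupal list. Of the 32 regions with a wild-type peak at L3 and 24 h, 26 had a lower percentile at 24 h, and the median difference was -9.29 points. They were lower by at least 10 points in 15 (series 47.3%) and higher by at least 10 points in 2 (series 15.5%). The median difference was -6.12 points in the regions with ChIP-seq and -17.6 points in those without, against -2.54 and -13.0 points in the series. From 24 h to 44 h there was little net movement, with a median difference of -0.13 over 23 regions, 7 lower by at least 10 points (series 24.1%) and 3 higher (series 26.6%). From L3 to 44 h, 12 of 23 regions were lower by at least 10 points (series 44.9%) and 2 higher (series 19.5%), and the median difference of -10.8 points shrank to -0.617 with equal list sizes. These shares were near those of the series, so no downward movement particular to the complex is read from them.

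The largest falls from L3 to 24 h were at +47.8 kb, from percentile 81.1 to 17.6, and at +79.6 kb, from 75.9 to 17.6. Both had no ChIP-seq peak. Among regions with one, +25.9 kb moved from 96.7 to 56.6 and +50.2 kb from 90.0 to 55.4. The 2 regions that rose were +49.3 kb, from 45.9 to 79.6, and +44.9 kb, from 39.3 to 64.0. Region +11.7 kb (chr3R:21821661-21822942, 1282 bp) fell only later, with wild-type ranks 446, 908 and 11637 and mutant ranks 114, 919 and 3411. Up to 24 h the genotypes held similar places there, and at 44 h the wild type stood lower.

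Region +70.9 kb (chr3R:21880862-21881421, 560 bp) was a strong site without a ChIP-seq peak whose place changed little. Its ranks were 836, 762 and 728 in the wild type and 521, 1079 and 381 in the mutant. Its summits lay between 71.18 and 71.19 kb in all 6 lists. The other regions called in all 6 FAIRE-seq lists and not in the ChIP-seq, +32.4, +59.7, +68.4 and +72.2 kb, were weaker, and the 5 together were 8.06% of the locus (2.67% to 17.8%) against 11.8% of all merged regions. Region +59.7 kb (ranks 1249, 3811 and 7504 in the wild type, 1274, 4339 and 4706 in the mutant) was mostly the highest of these 4. The exception was the wild type at 44 h, where +68.4 kb had rank 6428.

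Most wild-type peaks of the complex were found again in the E93 mutant. At L3, 44 of 60 wild-type peaks (73.3%, 60.3% to 83.9%) overlapped a mutant peak, against 61.3% of the list. At 24 h, 34 of 43 did (79.1%, 64.0% to 90.0%), against 65.4%, and at 44 h 27 of 34 did (79.4%, 62.1% to 91.3%), against 61.7%. Peaks in the strongest 25% of a list were nearly always found, the counts by stage being 22 of 22, 18 of 20 and 14 of 14, against 99.6%, 96.5% and 96.0%. Among the weaker peaks 57.9%, 69.6% and 65.0% were found, against 48.6%, 55.1% and 50.3%. The mutant lists are shorter, and at L3 the share of peaks found was 84.8% when both lists were held to the 22786 strongest peaks. The share over the whole lists at that size was not computed, so 84.8% cannot be set against 61.3%.

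The 2 strong 24 h peaks that the mutant lacked were at +49.3 and +67.7 kb. Region +49.3 kb (chr3R:21859303-21859700, 398 bp) had wild-type pileups of 34.0, 87.4 and 98.3 and ranks 20784, 6002 and 5599, so that it rose from the lower part of the list at L3 to the upper part at both pupal stages. The mutant had no peak there at L3 or 24 h, and at 44 h one of pileup 11.0 at rank 21795 of 22786. Neither region had a ChIP-seq peak. Next by 24 h rank among the regions without a mutant 24 h peak was +16.6 kb, with wild-type ranks 12095 and 14360 at L3 and 24 h, no wild-type peak at 44 h and a mutant peak at L3 only, at rank 15996.

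Nearby, region +68.4 kb was called in all 6 lists but was lower in the mutant at every stage. Its wild-type ranks were 10854, 7166 and 6428 and its mutant ranks 12064, 14651 and 10457. In percentiles the wild type stood at 72.2, 75.7 and 77.4 and the mutant at 56.4, 42.9 and 53.2. The mutant was thus lower at L3 already, where the lists differ most in length. Together with +67.7 kb, which starts less than 1 kb before it, this was a stretch where the wild type held pupal peaks that were absent or lower in the mutant. The distance between the regions is small, and they are not separate samples.

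Between the genotypes the percentiles moved in both directions at the pupal stages. At 24 h, 27 regions had a peak in both lists, 7 of them higher in the mutant by at least 10 points (series 25.1%) and 3 lower (series 28.8%), with a median difference of 0.52. At 44 h, 4 of 20 were higher (series 20.3%) and 4 lower (series 36.3%), with a median of 0.19. At L3, 15 of 40 were lower in the mutant by at least 10 points (series 40.8%) and 0 higher (series 4.78%). The L3 lists differ most in length, and with equal list sizes the median difference there was -0.15 in place of -7.13, so no lower place in the mutant at L3 is read from it.

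ChIP-seq peaks of E93-GFSTF lay at many of the strong sites of the complex, and regions with one are called bound below. A ChIP-seq peak lay in 15 of the 62 regions (24.2%, 14.2% to 36.7%), against 13.6% of all merged regions, and in 15 of the 35 regions with a wild-type 24 h peak (42.9%, 26.3% to 60.6%), against 26.1%. Both intervals lay above the share of the series, by a narrow margin. The 13 regions called in all 7 lists were 21.0% of the locus (11.7% to 33.2%), against 8.51% of all regions. These intervals take neighbouring regions of the locus as independent, so no enrichment particular to the complex is read from them. The share of bound regions was 16.7% at −log10 q of at least 10 and 18.8% in the window widened by 20 kb. It was 28.8% with equal list sizes and 30.6% in the window narrowed by 10 kb. No matching share of the series is given for that q or for equal list sizes. All 18 ChIP-seq peaks overlapped a peak in the wild type at L3 and at 24 h (series 80.7% and 95.8%), and 15 of 18 one at 44 h (series 75.9%). All 18 also overlapped a mutant peak at L3, 24 h and 44 h, against 76.9%, 86.2% and 78.8% of the ChIP-seq list. Of the 15 bound regions, 13 were in all 6 FAIRE-seq lists (series of bound regions 62.8%) and the same number had a wild-type peak at 44 h (78.4%), while all 15 had a mutant peak at 44 h (80.9%).

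The bound regions were long and strong before the stage at which binding was measured. At L3 in the wild type, the 15 regions with ChIP-seq had percentiles from 78.3 to 99.9 with a median of 96.1, and the 41 others with a peak had a median of 48.8. Their lengths ran from 620 to 2339 bp with a median of 1166 bp, against a median of 336 bp for the 47 regions without ChIP-seq. The same values were not computed for bound and unbound regions of the whole series, so nothing particular to the complex is read from them. Longer regions have more room for any overlap, and the part of length in the count of bound regions was not tested. By height the ChIP-seq peaks differed widely among themselves. Those at +17.9, +23.8 and +21.0 kb stood at ranks 77, 115 and 201 of 8477, while 3 others, at +50.2, +13 and +57.3 kb, stood at ranks 7245, 7079 and 6890.

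ChIP-seq summits of the complex lay about as far from FAIRE-seq summits as those of the whole list. The median distance to the nearest wild-type 24 h summit was 85 bp, and 9 of the 18 lay within 100 bp, against 97 bp and 51.5% over the series. For the mutant at 24 h the median was 90 bp, also with 9 of 18 within 100 bp, against 101 bp and 49.9%. Measured from the highest ChIP-seq peak to the highest wild-type 24 h peak of each bound region, the median was 126 bp in the complex and 90 bp in the series. The farthest ChIP-seq summit was 434 bp from a wild-type summit at 24 h.

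Some bound regions stood higher in the mutant at the pupal stages. At 24 h, 9 of the 15 had a higher percentile in the mutant (series of bound regions 47.8%), 4 of them by at least 10 points (series 20.6%), and 1 was lower by that much (series 25.0%). At 44 h, 8 of 13 were higher (series 51.3%), 4 by at least 10 points (series 25.9%), and 0 were lower by that much (series 22.7%). With so few regions, counts this near the shares of the series show nothing particular to the complex. Of the 7 regions without ChIP-seq that had a peak in both lists at 44 h, 0 were higher and 4 lower by at least 10 points, against 17.5% and 42.9%. All the bound regions that stood higher in the mutant by at least 10 points at a stage had fallen in the wild type by at least 10 points since L3. The same wild-type values enter both differences, so the 2 are not independent. The matching share over the bound regions of the series was not computed, so nothing particular to the complex is read from this.

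Region +28.9 kb (chr3R:21838935-21839554, 620 bp) had the largest such difference at both stages. Its wild-type ranks were 8490, 15113 and 27849, falling to the bottom of the 44 h list, where its pileup was 25.1. Its mutant ranks were 9143, 4211 and 10457, and its ChIP-seq rank was 5460. In percentiles the mutant was higher than the wild type by 34.9 points at 24 h and by 50.8 points at 44 h. Region +50.2 kb (chr3R:21860220-21861169, 950 bp) had wild-type ranks 3913, 13181 and 18799 and mutant ranks 2719, 6445 and 5913, with differences of 19.8 and 39.8 points. At +25.9 kb the difference was 31.3 points at 24 h, and at +11.7 kb it was 25.6 points at 44 h. At +32.9 kb it was 17.3 points at 24 h, and at +19.9 kb it was 10.3 points at 44 h.

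The opposite was seen at +46.2 kb, the bound region that was lower in the mutant at 24 h by at least 10 points. Its wild-type ranks were 7970, 3472 and 13483, with the high point at 24 h, and its mutant ranks were 7971, 10123 and 10457. The ChIP-seq rank was 4783. At +27.8 kb, also bound, the mutant differed from the wild type by -16.1 points at L3, where the lists differ most in length. Some other bound regions differed by less than 10 points between the genotypes at every stage. Among them were +51.9 kb (wild type 1506, 3700 and 4839, mutant 1623, 1466 and 2949) and +57.3 kb (2135, 3811 and 3384, and 2409, 2035 and 1427). Without replicate lists, how far such ranks would differ between samples of 1 genotype is unknown.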

How the data were processed

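Peaks had been called by the authors on pooled replicates, and 1 list per condition was deposited, 7 in all. The submitters' processing notes name Bowtie2 2.2.8, Picard 2.2.4, MACS2 and build dm3, without settings. Pileup, as deposited, is the coverage signal at a summit. The fold enrichment computed by the authors is the ratio of that signal to a local background. The deposited −log10 p and −log10 q rate each peak, and the lowest −log10 q of a list was 1.31 to 1.33. The control file, 10135847 reads from adult Oregon R virgin females, holds the authors' mapping score per read, which was not used. Control reads reach 4.18 Mb beyond the furthest peak on 3R, so fold enrichment was not compared between lists. RNA-seq was not analysed here.

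Peaks were merged over all 7 lists where they overlapped by at least 1 bp. Rank was by pileup within a list, ties sharing the best rank (the mean rank had been planned), and percentiles used the mean rank of ties. Regions named by rule were the 3 with the best worst rank over the FAIRE-seq lists, and the 3 highest each of those with no wild-type L3 peak, of L3 regions with no wild-type 24 h peak, of wild-type 24 h regions with no mutant 24 h peak, and of ChIP-seq peaks. The other regions were chosen after their values were seen. The window, lists and rule were chosen with earlier results of these data known. The planned search for motifs at gene starts was not run, since no sequences were used here. Shares have exact (Clopper-Pearson) 95% intervals. Overlap counting was tested on simulated lists. Software was Python 3.11.15, scipy 1.17.1, pandas 2.3.3 and numpy 2.4.6. No test between conditions was possible with single lists. Alternatives were ranking by −log10 p or fold enrichment, a stricter −log10 q (at least 10), equal list sizes (22786 peaks), an overlap of at least 50%, summits within 250 bp, and a window narrowed by 10 kb or widened by 20 kb. Covered length in equal lists, at the stricter q and in windows 10 kb apart was added after seeing the data.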

Additional observations from a re-analysis of the deposited data

Results flagged for a closer look

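In 2 regions the wild type and the E93 mutant moved in opposite directions by at least 10 percentile points between the same stages. Region +28.9 kb, which has a ChIP-seq peak, went from L3 to 24 h by -29.5 points in the wild type and by 16.6 points in the mutant. Region +72.2 kb, which has none, went from L3 to 44 h by 10.4 points in the wild type and by -22.0 points in the mutant. Each condition is 1 pooled list, so these differences were not tested. Opposite moves of that size were made by 1 of 26 members and 7.05% of the series' regions from L3 to 24 h, by 0 of 18 and 5.32% from 24 h to 44 h, and by 1 of 18 and 6.03% from L3 to 44 h, with a peak in all the lists compared.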

How the results depend on the processing

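No paired analysis was possible because the replicates of every condition were pooled into 1 list, which also means that none could be left out. Of 128 alternative values, 18 moved beyond the counting interval of the reported value (for numbers of peaks and covered shares, beyond 1.5 times it). The other 110 stayed within those limits, which are wide for the median changes of percentile. With equal list sizes the median change from L3 to 44 h went from -10.8 to -0.617 in the wild type and that from 24 h to 44 h from -7.5 to -1.65 in the mutant. Ranked by −log10 p, the wild-type change from 24 h to 44 h went from -0.132 to 0.083. No median whose interval lay on 1 side of 0 changed sign. Under the stricter −log10 q (at least 10), the window held 31 wild-type L3 peaks, 25, 29 and 25 mutant peaks at L3, 24 h and 44 h, and 7 ChIP-seq peaks. At that threshold, 1.35% and 7.62% of windows held at least as many peaks as the complex in the wild type at 24 h and 44 h, 1.15% in the mutant at 24 h and 6.61% in the ChIP-seq. Ranked by covered length in place of number, the share of windows was 0.0675%, 0.877% and 3.91% in the wild type at L3, 24 h and 44 h, 0.0675%, 0.27% and 1.42% in the mutant, and 2.43% in the ChIP-seq. With equal list sizes, 84.8% of wild-type L3 peaks were found in the mutant, and the median change of percentile between them was -0.154. The covered share at L3, an alternative added after seeing the data, was 36.2% with equal list sizes and 30.7% at the stricter q. Without the mutant L3 list, whose stage is in doubt, 61 regions were left, of which 36.1% had a peak at every wild-type stage and 24.6% a ChIP-seq peak, also added after seeing the data. The depth of single replicates is unknown, and weak peaks, which make up most of the losses, are the ones whose calls depend most on the length of a list.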

Other observations

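The sides of the complex differed. The 80 kb before the window held 12, 3 and 4 wild-type peaks at L3, 24 h and 44 h and 0 ChIP-seq peaks, and the 80 kb after it held 38, 28 and 24 and 3. The last region before the window, at chr3R:21809038-21809395, was called in all 6 FAIRE-seq lists, with ranks 1697, 3238 and 2595 in the wild type and 1212, 1968 and 2444 in the mutant. The first region inside it, +4.3 kb, was called in the wild-type L3 list only, at rank 36866. The window start is a set coordinate, and no gene annotation was used. Whether the region before the window belongs to the complex is therefore not known here.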
